A study of Mus musculus with 9 samples.

Results

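Solute carriers are the membrane proteins that move small molecules and ions across the cell surface and the membranes of organelles. They are described here in SVR cells, a mouse endothelial line that forms angiosarcomas, after treatment with the beta blocker propranolol. The members are genes whose symbol in the annotation of the array begins with Slc and a number, without the amino acid families Slc1, Slc3, Slc7 and Slc38 and without Slc6a9, Slc40a1, Slc11a2, Slc2a1, Slc16a1 and Slc16a3. A member also had to be detected (detection p under 0.05 against negative control beads) on all 3 arrays of at least 1 group. Of 286 such genes on the array, read by 412 probes, 131 genes with 173 probes passed, out of 7969 named genes and 11653 probes tested in all. The rule goes by symbol, so it keeps Slc9a3r1, Slc9a3r2 and Slc4a1ap, which are binding partners and not carriers, and some carriers of amino acids or iron in other families, such as Slc25a38, Slc66a1, Slc25a28 and Slc11a1.

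RNA of SVR cells was read on 9 Illumina bead arrays, with 3 arrays of sham-treated cells, labelled 0 h, 3 of cells given 50 µM propranolol for 4 h and 3 of cells given 50 µM for 24 h. These doses and times are those of the sample labels. The study's methods give a higher dose and the same treatment time for sham as for propranolol. All 9 arrays came from the same cell line and culture medium. RNA of the biological replicates was pooled before labelling according to the methods, so the spread between the 3 arrays of a group may be technical, and the p-values measure only that spread. The sham arrays carry another time label than the treated arrays, so treatment and time in culture cannot be told apart.

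The solute carrier superfamily is sorted into numbered families by sequence, and a family often shares a kind of cargo. Surface carriers set what a cell takes up, such as sugars, vitamins, nucleosides and zinc, while the large mitochondrial family Slc25 exchanges metabolites, phosphate and nucleotides across the inner mitochondrial membrane. Other families serve lysosomes, the Golgi apparatus and endosomes, and ion exchangers of families Slc4, Slc8, Slc9 and Slc24 regulate cell pH and calcium. In endothelial cells, nucleoside carriers clear adenosine and folate carriers feed the making of nucleotides.

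Array means ranged over 306.5 to 387.7 intensity units in sham arrays, 326.6 to 373.2 in 4 h arrays and 306.7 to 341.6 in 24 h arrays, with 11454 to 12245 probes detected per array. Correlations between arrays of 1 group lay between 0.9951 and 0.9966, and those between 24 h and sham arrays between 0.9563 and 0.9586. The third 24 h array was the only array on a second BeadChip, and the groups held adjoining positions on the first, where the effect of position and that of the group cannot be told apart. Of 9 endothelial marker genes tested, all 9 were higher at 24 h than in sham. Intensities summed over the 11 endothelial markers on the array were 15760 to 18381 on 24 h arrays and 7006 to 8987 on sham arrays. Kdr and Erg, also endothelial markers, were each detected on 1 array of 9 and were not tested. Of 5 fibroblast markers 4 were detected on no array, as were 3 of 4 myeloid and 2 of 4 smooth muscle markers on the array, with Cd14 higher and Acta2 lower at 24 h. Summed epithelial markers read 526 to 616 at 24 h and 847 to 1086 in sham, with Krt18 and Krt19 lower. Whether these shifts have a part in the carrier results was not tested, and in bulk RNA a change in the number of cells of a type and in RNA per cell cannot be told apart.

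After 24 h of propranolol, 23 of the 131 members were higher than in sham (17.6%, against 13.6% of all 7969 genes) and 7 were lower (5.34%, against 11.1% of all genes). A gene was called at an adjusted p under 0.05 by limma and a change of at least 1.5-fold. With background corrected, the largest rises were those of Slc12a8 (at least 3.55-fold), Slc46a3 (3.94-fold) and the scaffold gene Slc9a3r2 (3.93-fold). The largest falls were those of the folate carriers Slc19a1 and Slc25a32 and the nucleoside carriers Slc29a1 and Slc29a2. Of the members called, 76.7% were higher (55.2% over all genes), and after scaling by the 75th percentile without background correction 60.0% were (42.1% over all genes). Among the 102 members detected on all 9 arrays, 16 were higher and 6 were lower. With only such probes fitted, 72.7% of the members called were higher (52.3% over all genes). At 2-fold, 9 members were higher (6.87%, against 5.51% of all genes) and 4 were lower (3.05%, against 2.59%). The median log2 fold change of the members was 0.115, against -0.017 over all genes, and it was 0.027 over the 102 members detected on all 9 arrays and -0.022 after scaling by the 75th percentile without background correction. These counts are a description, since no test of the list was made. At 1.5-fold the share of members called higher, 17.6%, was near the 13.6% of all genes. The share called lower, 5.34%, was below the 11.1% of all genes. Every array of the 24 h group lay above every sham array for 50 members (38.2%, against 33.1% of all genes) and below for 36 members (27.5%, against 33.3%).

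**Figure D1:**
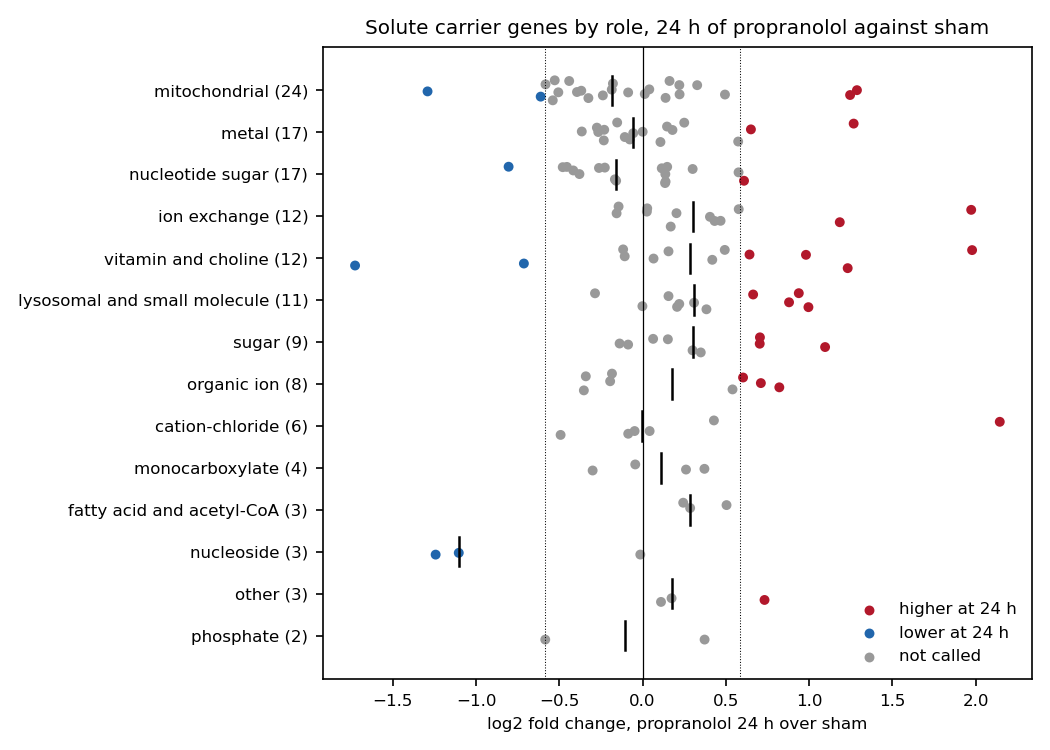
Change of each tested solute carrier gene after 24 h of propranolol over sham (x axis, log2 fold change), by role (y axis, number of genes tested in parentheses). Each point is a gene, the short bars are role medians and the dotted lines mark 1.5-fold. The 3 nucleoside carriers had the lowest role median, -1.10, which is the value of Slc29a2, detected on 1 array of 3 at 24 h. Of the lower genes, 7 of 7 lay in the mitochondrial, nucleotide sugar, vitamin and choline and nucleoside roles.

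Calls in both directions occurred in 3 of 14 roles. Among vitamin and choline carriers, 4 of 12 tested genes were higher and 2 were lower; among mitochondrial carriers, 2 of 24 were higher and 2 were lower; and among nucleotide sugar carriers, 1 of 17 was higher and 1 was lower. Of 3 nucleoside carriers, 2 were lower. All calls were upward among lysosomal and small molecule carriers (4 of 11 tested), sugar carriers (3 of 9), organic ion carriers (3 of 8), metal carriers (2 of 17), ion exchangers (2 of 12), cation-chloride cotransporters (1 of 6) and the remaining carriers outside these roles (1 of 3). Among 4 monocarboxylate, 3 fatty acid or acetyl-CoA and 2 phosphate carriers, 0 genes were called at 24 h, although 3, 1 and 1 of them passed limma's adjusted p of 0.05 without reaching 1.5-fold. By that adjusted p alone, 44 of all 131 members were higher and 33 were lower. With this few genes to a role the counts are given as they stand. Over all genes, 13.6% were called higher and 11.1% lower at 24 h.

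Slc12a8 is an atypical member of the cation-chloride cotransporter family whose cargo is debated. It read 6.64, 6.48 and 6.37 on the 24 h arrays and 4.33, 4.43 and 4.30 on the sham arrays, in log2 signal after background correction and quantile normalization, the scale of all signals below. The 4 h arrays read 4.29, 4.37 and 4.34. The gene was detected on all 3 arrays at 24 h and on no array at 4 h or in sham, so the groups do not overlap and the sham level is only a bound. Its 24 h signal was at least 3.55-fold higher than in sham (limma adjusted p = 1.25e-08) and at least 3.60-fold higher than at 4 h (limma adjusted p = 2.20e-08). A bound of this kind sets the bright group's mean against the lowest signal of a detected probe. Both are taken after background correction, so a bound depends on that step. Without that correction the log2 fold change of Slc12a8 over sham was 0.76. The limma p-value printed beside a bound, here and below, belongs to the fitted difference from undetected signals and not to the bound.

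Slc12a2, the ubiquitous sodium, potassium and chloride cotransporter that loads chloride into cells, read 11.02, 11.17 and 11.12 at 24 h and 11.07, 11.02 and 11.09 in sham. Those groups overlapped, with a log2 fold change of 0.04 and a 95% interval of -0.10 to 0.18. Among genes that regulate this family, the kinases Stk39 and Oxsr1, which phosphorylate the cotransporters, fell by 1.04 and 0.60 on the log2 scale at 24 h against sham (limma adjusted p = 3.14e-06 and 1.61e-05). The upstream kinase gene Wnk1 had a log2 fold change of 0.12 (limma adjusted p = 0.307).

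Slc9a3r2 encodes NHERF2, a PDZ scaffold that tethers sodium-proton exchangers and receptors to the cytoskeleton. Its signals were 11.34, 11.40 and 11.49 at 24 h, against 9.47, 9.38 and 9.46 in sham. The 4 h arrays, at 9.04, 9.13 and 9.19, lay below every sham array. The 24 h rise was 1.97 ± 0.07 on the log2 scale (SE, limma adjusted p = 9.04e-09, n = 3 arrays each), and its other tested probe gave 1.81. At 4 h the log2 fold change was -0.32 (limma adjusted p = 0.00885), which is under 1.5-fold and not a call, and the difference of 24 h from 4 h was 2.29 (limma adjusted p = 8.87e-09). Slc9a3r2 is shown with the stretch before 1 of its RefSeq transcript starts because 1 of the motifs searched, the sterol regulatory element (TCACNCCAC), lies there. It was found in 1.19% of 21262 promoter windows of protein-coding genes, and the capitals mark it, read here on the opposite strand, 10 bases before the start (GRCm38.p6, chr17:24644958-24645037, minus strand).
Slc9a3r2: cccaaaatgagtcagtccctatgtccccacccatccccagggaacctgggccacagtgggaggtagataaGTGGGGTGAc

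Slc8b1, the mitochondrial exchanger NCLX that releases calcium from mitochondria in exchange for sodium, read 9.16, 9.02 and 9.07 at 24 h and 8.02, 7.85 and 7.83 in sham, with no overlap. It rose by 1.18 ± 0.09 on the log2 scale (SE, limma adjusted p = 1.65e-06). The 4 h arrays, at 8.43, 8.62 and 8.32, also lay above sham, with a log2 fold change of 0.56 (limma adjusted p = 0.00192) that did not reach 1.5-fold. The mitochondrial calcium uniporter gene Mcu, which works in the opposite direction, had a log2 fold change of -0.44 at 24 h (limma adjusted p = 0.00196), also under 1.5-fold. Slc24a3, a potassium-dependent sodium-calcium exchanger of the plasma membrane, differed between the treatment times and not by a call from sham. It read 5.80, 5.92 and 5.74 at 24 h and 5.13, 4.89 and 5.32 at 4 h, a difference of 0.70 (limma adjusted p = 0.00059). The plasma membrane calcium pump Atp2b1 rose by 0.75 at 24 h against sham (limma adjusted p = 5.33e-05). Slc9a8, an endosomal sodium-proton exchanger, had a log2 fold change of -0.14 at 24 h by its brightest probe (limma adjusted p = 0.295), while 1 of its 2 other tested probes gave -0.62 (limma adjusted p = 0.00288).

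Vitamin and choline carriers held both the strongest fall and 1 of the 3 strongest rises of all members. Slc46a3, a lysosomal membrane carrier related to the proton-coupled folate transporter, read 7.13, 7.16 and 7.01 at 24 h and 5.04, 5.19 and 5.14 in sham. All 24 h arrays lay above all sham arrays, and the rise was 1.98 ± 0.08 on the log2 scale (SE, limma adjusted p = 2.53e-08). At 4 h the signals of 5.51, 5.63 and 5.76 were above sham by 0.51 (limma adjusted p = 0.0018), under 1.5-fold. The stretch below is shown because it carries, in capitals and 108 bases before a start, a match to the antioxidant response element (TGACNNNGC). That motif was held by 13.0% of promoter windows of all genes and 19.1% of 141 member windows. Another match to it lies past the start, outside the stretch. In lower case, the stretch (GRCm38.p6, chr5:147894880-147894959, minus strand) also holds a match to the metal response element (TGCGCNC or TGCACNC), 121 bases before the start.
Slc46a3: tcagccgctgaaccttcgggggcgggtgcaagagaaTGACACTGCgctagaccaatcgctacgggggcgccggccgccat

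Slc19a1 is the reduced folate carrier, which brings folate and antifolate drugs such as methotrexate into cells. Its signals were 7.86, 7.61 and 7.70 at 24 h, against 9.36, 9.43 and 9.55 in sham, without overlap. The gene fell by 1.73 on the log2 scale (SE 0.0843, limma adjusted p = 7.97e-08), a 3.31-fold decrease. Arrays at 4 h, at 8.97, 9.11 and 8.99, lay below every sham array too, with a log2 fold change of -0.43 (limma adjusted p = 0.00555) that was under 1.5-fold. The fall thus ran in the same direction at both times, and the difference of 24 h from 4 h was -1.30 (limma adjusted p = 8.90e-07). The same antioxidant response element motif was present before a start of this fallen gene, on the opposite strand and 30 bases from the start, and is in capitals (GRCm38.p6, chr10:77033132-77033211, plus strand).
Slc19a1: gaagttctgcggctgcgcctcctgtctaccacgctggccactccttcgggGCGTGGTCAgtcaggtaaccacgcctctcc

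Of the other carriers that handle folate, Slc25a32, which brings folate into mitochondria, fell at both times. Its signals were 6.62, 6.71 and 7.02 in sham, 6.0, 6.06 and 5.93 at 4 h and 5.70, 5.47 and 5.30 at 24 h. Neither treated group overlapped sham. Slc25a32 fell by 1.29 at 24 h (limma adjusted p = 7.68e-06) and by 0.79 at 4 h (limma adjusted p = 0.00146). Slc46a1, the proton-coupled folate transporter, read 4.75, 5.08 and 5.19 at 24 h and 4.96, 4.96 and 4.64 in sham, with overlap and a log2 fold change of 0.16 (limma adjusted p = 0.332).

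Both choline carrier genes called were higher. Slc44a1, the choline transporter-like protein CTL1, read 5.95, 5.79 and 6.31 at 24 h and 4.52, 4.77 and 5.06 in sham. It rose by 1.23 ± 0.15 (SE, limma adjusted p = 5.61e-05). Slc44a2, a relative also found at mitochondria, rose by 0.64 (limma adjusted p = 7.96e-06), with signals of 9.57, 9.61 and 9.57 at 24 h and 8.96, 8.96 and 8.91 in sham. Its lowest other tested probe gave 0.55, under 1.5-fold.

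Slc52a3, a riboflavin transporter, read 6.47, 6.63 and 6.50 at 24 h and 5.61, 5.59 and 5.45 in sham, and rose by 0.98 ± 0.07 (SE, limma adjusted p = 1.08e-06). Its 4 h arrays, at 5.56, 5.52 and 5.54, overlapped sham, with a log2 fold change of -0.01. Slc5a6, the sodium-dependent carrier of biotin and pantothenate, fell by 0.71 (limma adjusted p = 1.09e-05), with 6.90, 6.92 and 6.99 at 24 h and 7.74, 7.54 and 7.65 in sham. Slc19a2, a thiamine carrier from the family of Slc19a1, had a log2 fold change of 0.07 at 24 h (95% interval -0.10 to 0.23) and of 0.49 at 4 h (limma adjusted p = 0.00127), under 1.5-fold. The vitamin C carrier Slc23a2 and its relative Slc23a3 had log2 fold changes of 0.49 and 0.42 at 24 h (limma adjusted p = 0.000457 and 0.000616), neither reaching 1.5-fold, and Slc23a3, undetected in sham, reached at least 1.16-fold higher after 24 h.

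**Figure D2:**
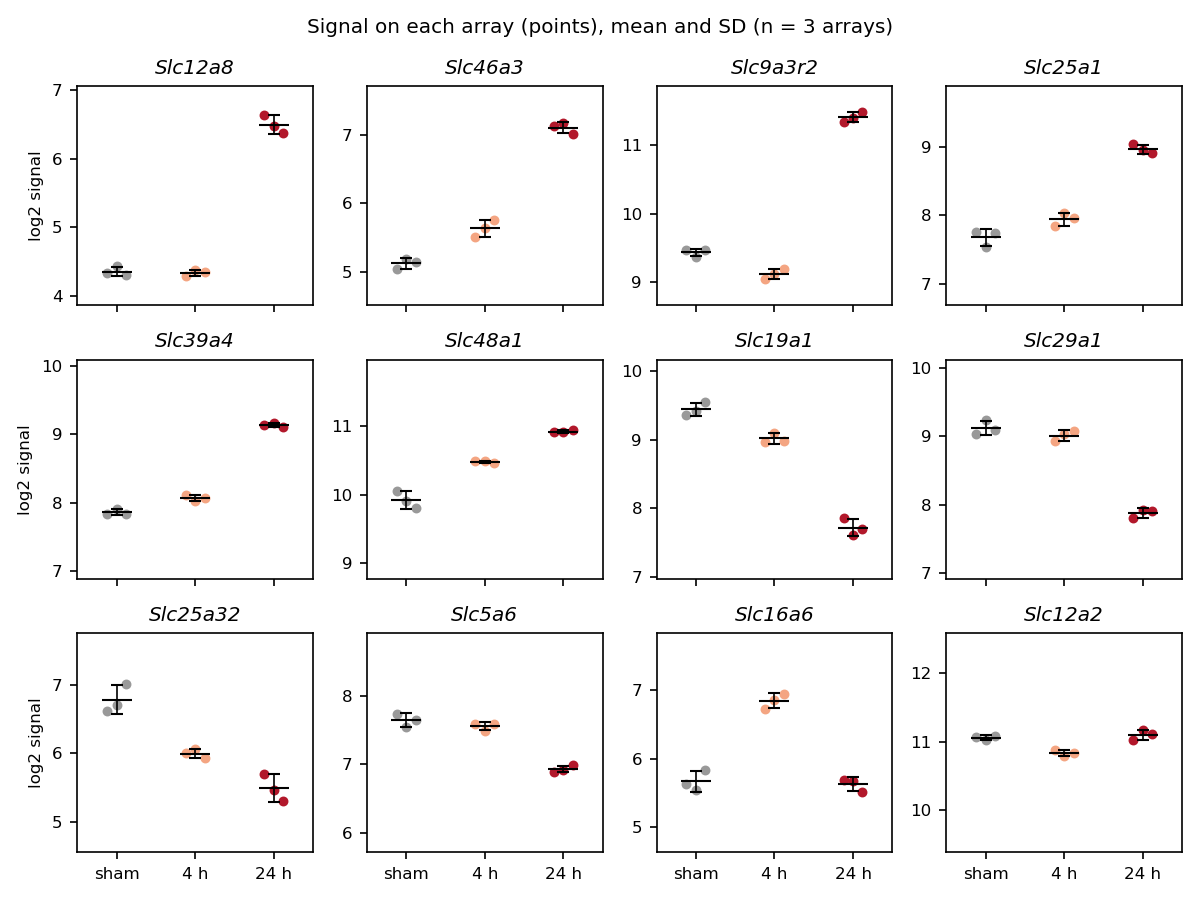
Log2 signal (y axis, each panel spanning an equal range) of 12 genes on each sham, 4 h and 24 h array (x axis). Points are arrays and the bars are the mean and SD of 3 arrays. Slc12a8 stayed between 4.29 and 4.43 on the 6 sham and 4 h arrays and read 6.37 to 6.64 at 24 h, Slc16a6 was highest at 4 h, and Slc12a2 stayed within 10.79 to 11.17 on all 9 arrays.

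Among mitochondrial carriers, Slc25a1 and Slc25a45 rose, Slc25a32 and Slc25a38 fell, and the family median was -0.18. Slc25a1 exports citrate from mitochondria, which feeds the making of fatty acids and sterols in the cytosol. It read 7.75, 7.53 and 7.74 in sham, 7.84, 8.03 and 7.95 at 4 h and 9.03, 8.94 and 8.90 at 24 h, so both treated groups lay above sham. The rise was 1.29 ± 0.08 at 24 h (SE, limma adjusted p = 4.82e-07) and the other tested probe gave 0.99. At 4 h the log2 fold change was 0.27 (limma adjusted p = 0.0383), under 1.5-fold. The E-box CACGTG, a motif that reads alike on both strands, lies 239 bases before a start of Slc25a1 and is in capitals below. It was found in 7.84% of promoter windows of all genes and in 16.3% of member windows (GRCm38.p6, chr16:17928390-17928469, minus strand).
Slc25a1: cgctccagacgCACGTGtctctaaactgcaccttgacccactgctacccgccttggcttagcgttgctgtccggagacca

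Slc25a45, a little studied member of the family, read 8.62, 8.60 and 8.67 at 24 h and 7.40, 7.37 and 7.37 in sham. It rose by 1.25 ± 0.07 (SE, limma adjusted p = 1.46e-07) and the groups do not overlap. Slc25a38, which supplies glycine to mitochondria for heme synthesis, fell by 0.61 (limma adjusted p = 5.12e-05), with 8.69, 8.55 and 8.61 at 24 h and 9.11, 9.26 and 9.31 in sham. Its 3 tested probes gave -0.63 to -0.61. Without the third sham array or the second 24 h array its change was -0.57 or -0.58, under 1.5-fold. Slc25a3, the phosphate carrier, and Slc25a5, an exchanger of ADP and ATP, had log2 fold changes of -0.58 and -0.53 at 24 h (limma adjusted p = 0.000374 and 2.83e-05). Neither reached 1.5-fold, Slc25a3 only just, at 1.498-fold lower. Slc25a28, mitoferrin-2, which brings iron into mitochondria, read 10.17, 10.15 and 10.03 at 24 h and 10.03, 10.24 and 10.05 in sham, with a log2 fold change of 0.01 (95% interval -0.17 to 0.20). The outer membrane channel genes Vdac1, Vdac2 and Vdac3 had log2 fold changes of -0.45, -0.26 and 0.00 (limma adjusted p = 0.000656, 0.0535 and 0.985), none of them a call.

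Of the equilibrative nucleoside carriers, the surface forms fell and the lysosomal form did not pass the test. Slc29a1, or ENT1, the main route for adenosine into endothelial cells, read 7.80, 7.93 and 7.91 at 24 h and 9.04, 9.24 and 9.09 in sham. It fell by 1.24 (SE 0.0752, limma adjusted p = 3.57e-07), with no overlap. At 4 h it read 8.93, 9.03 and 9.07, which overlapped sham, with a log2 fold change of -0.11 (limma adjusted p = 0.324), and the difference of 24 h from 4 h was -1.13 (limma adjusted p = 1.05e-06). Slc29a2, or ENT2, read 5.14, 5.76 and 6.01 in sham, 4.98, 4.84 and 4.90 at 4 h and 4.52, 4.47 and 4.61 at 24 h. Both treated groups lay below sham, and Slc29a2 fell by 1.10 at 24 h (limma adjusted p = 0.000331) and by 0.73 at 4 h (limma adjusted p = 0.0145). The sham arrays of this dim gene were spread widely, and without the third of them its 4 h change was -0.54, under 1.5-fold. At 24 h Slc29a2 was detected on 1 array of 3. Its 24 h change was as small as -0.26 in the alternative runs. The 24 h call was lost without background correction, in the authors' normalized table and after 75th percentile scaling. Slc29a3, the lysosomal ENT3, read 6.36, 6.44 and 6.46 at 24 h and 6.43, 6.44 and 6.43 in sham, with a 95% interval of -0.17 to 0.14 for the log2 fold change.

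Of 17 metal carriers tested, the zinc importer Slc39a4 (ZIP4) and the magnesium carrier Slc41a3 were called. Slc39a4 read 9.13, 9.16 and 9.10 at 24 h and 7.84, 7.91 and 7.84 in sham, and rose by 1.27 ± 0.06 (SE, limma adjusted p = 6.26e-08). By the same probe the 4 h arrays, at 8.11, 8.02 and 8.06, also lay above all sham arrays, with a log2 fold change of 0.20 (limma adjusted p = 0.0336). A second probe of Slc39a4, detected on no sham array, gave a fitted 0.70 at 24 h. Slc41a3, which moves magnesium out of mitochondria, read 5.16, 5.37 and 5.24 at 24 h and 4.43, 4.48 and 4.90 in sham and rose by 0.65 (limma adjusted p = 0.0012). This call was lost without the first sham array, at 0.56, and the gene's other tested probe gave 0.33. Each of these probes was detected on 1 sham array of 3. Slc39a7, the zinc carrier ZIP7 of the endoplasmic reticulum, had a log2 fold change of 0.00 by its brightest probe (95% interval -0.25 to 0.25), while another of its 3 tested probes gave -0.61 (limma adjusted p = 0.000713), so its probes differ. Of the metallothioneins, which bind zinc, Mt1 rose by 0.98 at 24 h and by 0.82 at 4 h (limma adjusted p = 5.53e-07 and 2.32e-05), and Mt2 had 0.19 and 0.53 (limma adjusted p = 0.246 and 0.0191) and was not called. Slc11a1, a metal carrier of phagocyte endosomes, had a log2 fold change of 0.11 (limma adjusted p = 0.264) by its brightest probe, and another probe, detected on no sham array, gave a fitted 0.83.

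All 3 sugar carriers called were higher, and Slc2a6 and Slc2a8 encode carriers of intracellular membranes. Slc2a6, or GLUT6, a lysosomal hexose carrier, read 5.37, 5.46 and 5.44 at 24 h and 4.25, 4.40 and 4.33 in sham. It was detected on no sham or 4 h array, so its 24 h signal was at least 1.69-fold higher than in sham (limma adjusted p = 1.25e-06). Slc2a8, or GLUT8, read 6.07, 6.43 and 6.0 at 24 h and 5.55, 5.72 and 5.13 in sham and rose by 0.70 ± 0.16 (SE, limma adjusted p = 0.00319). Without the third sham array or the second 24 h array its change was 0.53 or 0.57, under 1.5-fold. Slc45a3, known as prostein, rose by 0.70 ± 0.10 (SE, limma adjusted p = 0.000109), with 7.09, 6.88 and 6.92 at 24 h and 6.09, 6.40 and 6.29 in sham. Its relative Slc45a4 had a log2 fold change of 0.06 (95% interval -0.10 to 0.22).

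The only member higher at 4 h was Slc16a6, a monocarboxylate carrier known in zebrafish liver as an exporter of ketone bodies. It read 5.64, 5.54 and 5.84 in sham, 6.73, 6.87 and 6.95 at 4 h and 5.70, 5.68 and 5.51 at 24 h. The 4 h arrays lay above all the others, and the 24 h and sham arrays overlapped. Slc16a6 rose by 1.17 ± 0.10 at 4 h against sham (SE, limma adjusted p = 3.13e-05) and was lower at 24 h than at 4 h, by a log2 difference of -1.22 (limma adjusted p = 3.25e-06), with -0.04 at 24 h against sham (limma adjusted p = 0.711). Its other tested probe gave -0.78 at 24 h against sham (limma adjusted p = 2.88e-05), so its 2 probes do not give the same 24 h call. The other 3 monocarboxylate carriers tested had log2 fold changes of -0.30 to 0.37 at 24 h.

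Carriers of lysosomes and of small molecules gave 4 rises and no fall. Slc48a1, or HRG1, which moves heme out of lysosomes, read 10.06, 9.91 and 9.81 in sham, 10.49, 10.48 and 10.47 at 4 h and 10.91, 10.91 and 10.95 at 24 h. The groups form 3 separate steps, with log2 fold changes over sham of 0.56 at 4 h (limma adjusted p = 0.000496, under 1.5-fold) and 1.00 at 24 h (limma adjusted p = 1.15e-06). Slc17a5, or sialin, the lysosomal exporter of sialic acid, rose by 0.94 ± 0.07 (SE, limma adjusted p = 1.98e-06), with 6.07, 6.06 and 5.98 at 24 h and 4.99, 5.08 and 5.23 in sham. Slc6a8, the creatine carrier of the cell surface, rose by 0.88 ± 0.07 (SE, limma adjusted p = 2.43e-06), with 8.50, 8.33 and 8.31 at 24 h and 7.56, 7.49 and 7.45 in sham. None of these genes had overlapping 24 h and sham arrays. Slc15a2, the peptide carrier PEPT2, could not be detected in sham and its 24 h signal was higher by at least 1.21-fold (limma adjusted p = 0.000247). Slc15a4, which exports histidine and peptides from endolysosomes, had a log2 fold change of 0.00 (95% interval -0.26 to 0.26). Slc66a1, a lysosomal exporter of basic amino acids, read 6.01, 6.16 and 5.93 at 24 h and 5.32, 5.32 and 5.28 in sham and rose by 0.73 (limma adjusted p = 0.000249). Of the partner genes, Unc93b1, which escorts Toll-like receptors to endolysosomes, rose by 1.34 at 24 h (limma adjusted p = 6.72e-05).

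Of the 3 organic ion carriers called, all higher, 1 was detected in sham. Slc22a23, which has no settled cargo, read 6.62, 6.62 and 6.53 at 24 h and 5.76, 5.68 and 5.86 in sham and rose by 0.82 (limma adjusted p = 1.62e-05). By their tested probes, Slc22a4, or OCTN1, a carrier of ergothioneine, and Slc22a18, an imprinted gene whose cargo is not settled, were detected on no sham or 4 h array. Their 24 h signals were at least 1.29-fold and at least 1.16-fold higher than in sham (limma adjusted p = 9.23e-05 and 0.000266), and the fitted change of Slc22a18, 0.60, was 0.49 to 0.58, under 1.5-fold, without the first 24 h array or without the first or second sham array. An untested second probe of Slc22a18 was detected on 1 array at 4 h and on no array at 24 h. The brightest probe of Slc47a1, an exporter of organic cations, was undetected in sham as well. It reached at least 1.28-fold higher after 24 h, with a fitted change of 0.54 (limma adjusted p = 0.000746) that is not a call. The gene's other tested probe was detected on 2 sham arrays and gave -0.09 at 24 h (limma adjusted p = 0.583). Slc22a7 had -0.18 (limma adjusted p = 0.0774). Carriers outside the Slc symbol were called in both directions. Slco4a1, an organic anion carrier of thyroid hormone and prostaglandins, rose by 2.02 at 24 h and by 1.03 at 4 h (limma adjusted p = 6.08e-09 and 5.86e-06), while the drug pump Abcb1b fell by 0.72 at 24 h (limma adjusted p = 2.21e-05).

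Among nucleotide sugar carriers and their relatives, Slc35e3 rose and Slc35g1 fell, and neither has a settled cargo. Slc35e3 read 9.23, 9.24 and 9.31 at 24 h and 8.64, 8.65 and 8.66 in sham, and rose by 0.61 ± 0.06 (SE, limma adjusted p = 6.83e-06). Its 4 h arrays, at 9.19, 9.19 and 9.16, were above sham by 0.53 (limma adjusted p = 0.000156), under 1.5-fold. Slc35g1 fell by 0.80 (limma adjusted p = 4.19e-06), with 6.60, 6.45 and 6.57 at 24 h and 7.38, 7.34 and 7.32 in sham. Slc35d1, which takes UDP-glucuronic acid into the endoplasmic reticulum, had a log2 fold change of 0.12 (95% interval -0.06 to 0.29). Slc20a2, a sodium-phosphate cotransporter, fell short of a call by the least, with -0.58, or 1.499-fold lower (limma adjusted p = 4.00e-05). Of the fatty acid carriers, Slc27a1 and Slc27a3 had log2 fold changes of 0.29 and 0.24 (limma adjusted p = 0.0624 and 0.225), and Slc27a3 was detected on no sham array. The third fatty acid carrier tested, Slc27a4, had 0.50 (limma adjusted p = 0.00503), under 1.5-fold.

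**Figure D3:**
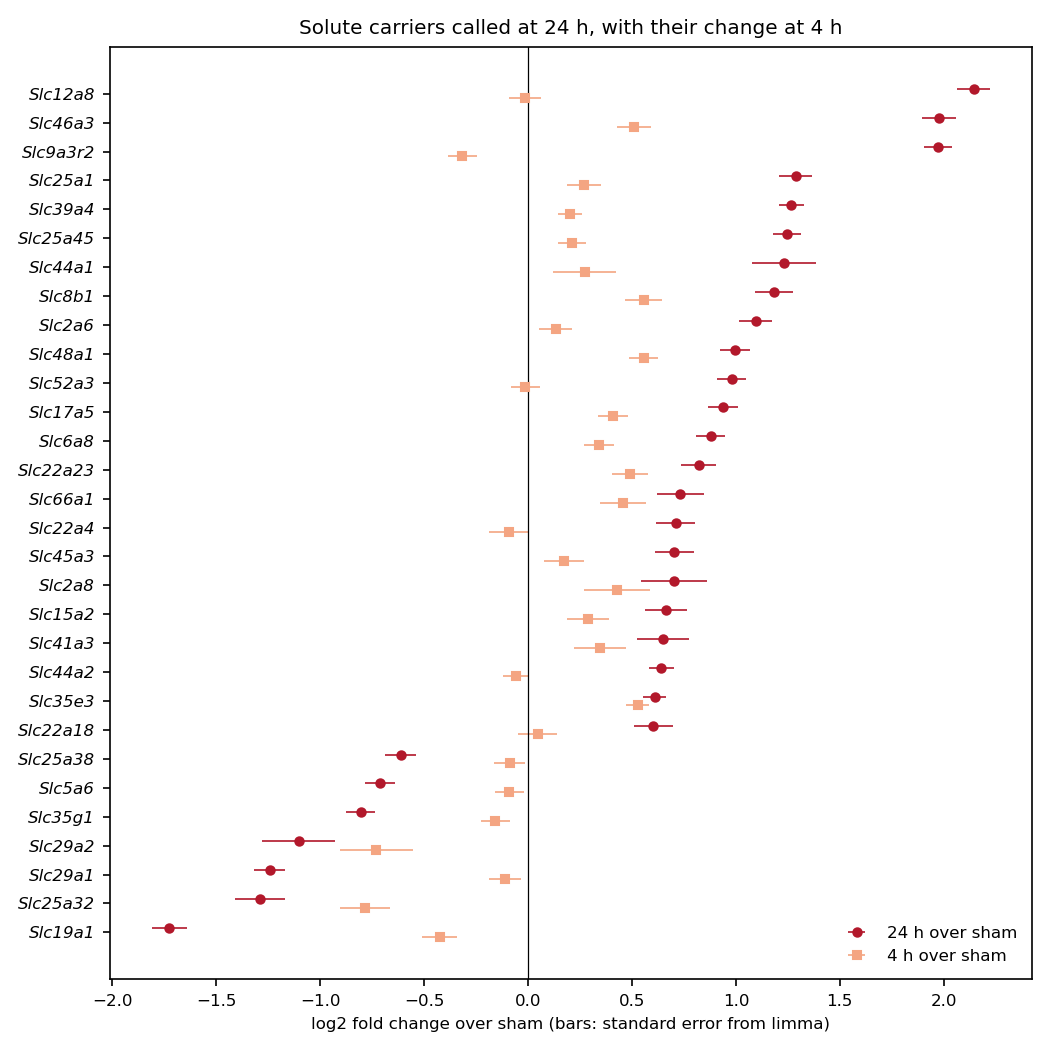
Log2 fold change over sham (x axis) of the 30 solute carriers called at 24 h (y axis, by size), with the 24 h change as a circle and the 4 h change as a square. Bars are standard errors from limma. At 4 h only Slc25a32 and Slc29a2 of these genes passed the call, at -0.79 and -0.73, and Slc9a3r2 lay at -0.32 while its 24 h change was 1.97.

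At 4 h, 1 member was higher than in sham (0.763%, against 2.05% of all genes) and 2 were lower (1.53%, against 2.01%). The members' median log2 fold change was 0.024, against 0.013 over all genes, and at 2-fold 1 member was higher (0.763%, against 0.351% of all genes) and 0 were lower (against 0.364%). By limma's adjusted p alone, 19 were higher (14.5%, against 13.1% of all genes) and 14 were lower (10.7%, against 11.5%). Of the 30 genes called at 24 h, 2 were called at 4 h as well, and no member was called in opposite directions at the 2 times. Between 24 h and 4 h, 13 members were higher at 24 h (9.92%, against 10.6% of all genes) and 5 were lower (3.82%, against 7.4%). At 2-fold, 6 were higher (4.58%, against 4.39%) and 3 were lower (2.29%, against 1.17%). All 24 h arrays lay above all 4 h arrays for 48 members (36.6%, against 29.5% of all genes) and below for 41 (31.3%, against 33.1%), and all 4 h arrays lay above sham for 32 (24.4%, against 22.9%) and below for 21 (16%, against 19.3%). The 18 members called between 24 h and 4 h were 12 of the 23 higher and 4 of the 7 lower at 24 h against sham, and beside them Slc24a3 and Slc16a6. The comparisons share the sham or the 24 h arrays, so they are not independent. For the other 14 genes called against sham, the change between 4 h and 24 h did not reach a call.

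Of 67 partner genes listed beside the carriers (organic anion carriers, ABC pumps, ion ATPases, calcium and volume channels, kinases, metallothioneins and others), 41 were tested. At 24 h, 7 were higher and 7 were lower than in sham (17.1% each, against 13.6% and 11.1% of all genes). At 4 h, 2 were higher (4.88%, against 2.05%) and 0 were lower (against 2.01%) by limma. By adjusted p alone 5 of the 41 were higher and 9 were lower, beside 13.1% and 11.5% of all genes. The sodium pump beta subunit Atp1b1 fell by 1.01 (limma adjusted p = 7.94e-07) and Fxyd5, a regulator of that pump, rose by 1.16 (limma adjusted p = 2.36e-07). The water channel gene Aqp1 fell by 0.79 (limma adjusted p = 2.06e-06). Abcc5, a pump for cyclic nucleotides, rose by 1.21 (limma adjusted p = 3.54e-06).

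The background step changed the size of many of these folds. Without background correction all 30 called genes kept their sign, but 9 of the 23 higher and 2 of the 7 lower kept a change of at least 1.5-fold. Over all genes, the number called higher went from 1085 to 576 and the number called lower from 882 to 415. The log2 fold change without correction was 1.84 for Slc9a3r2, against 1.97 with it, and 0.87 for Slc46a3, against 1.98 with it. For Slc12a8 it was 0.76, for Slc25a1 1.00, for Slc39a4 1.01, for Slc19a1 -1.39, for Slc29a1 -0.99 and for Slc25a32 -0.57. Of the 8 members whose brightest tested probe was detected on no sham array, 5 were called higher at 24 h. No member's brightest tested probe was undetected on all 24 h arrays. Such genes could pass the detection rule only through a treated group, so their number follows from that rule.

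**Figure D4:**
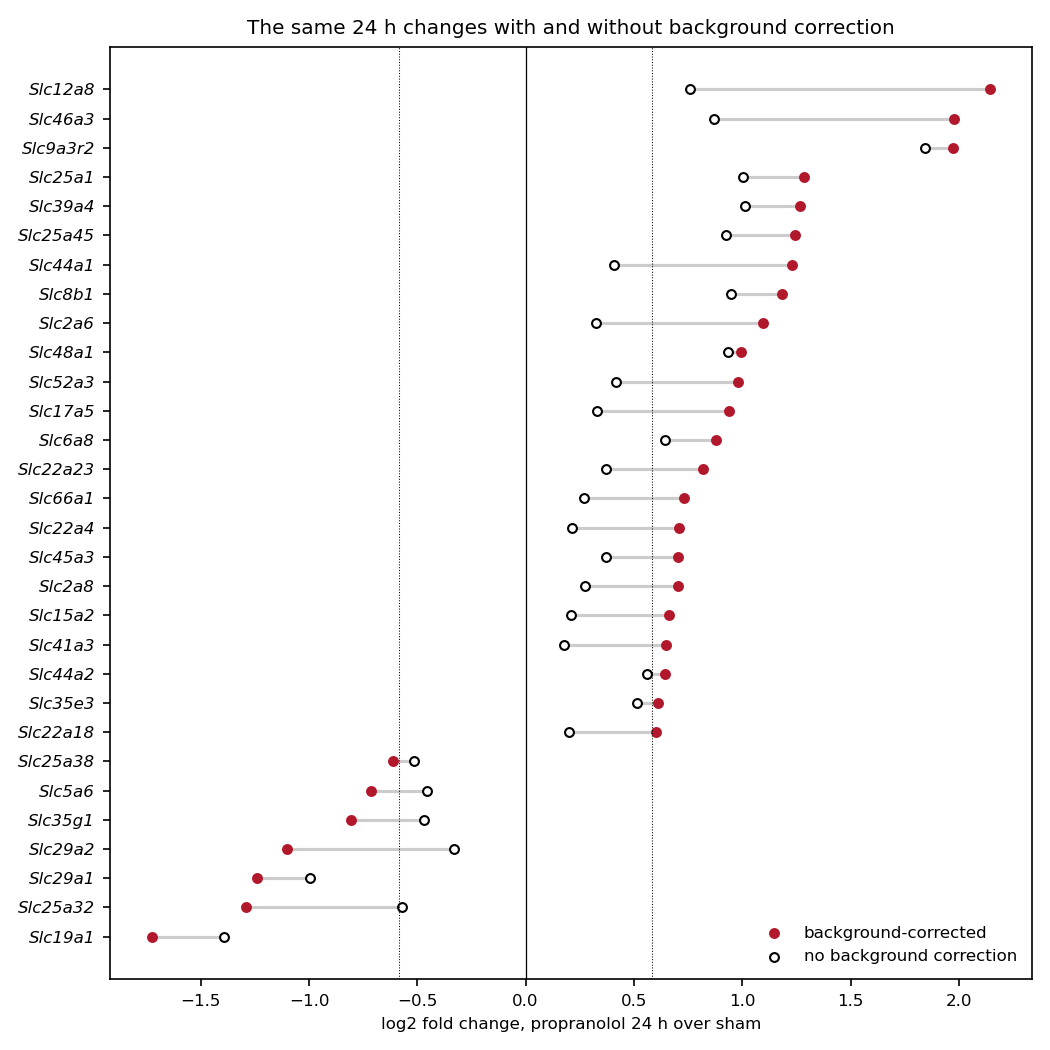
Log2 fold change at 24 h over sham (x axis) of the 30 called solute carriers (y axis), with background-corrected values as filled circles and uncorrected values as open circles, and dotted lines at 1.5-fold. Slc9a3r2 moved little, at 1.97 and 1.84, while Slc12a8 lay at 2.14 with correction and at 0.76 without it, and 19 of the 30 lay inside the lines without correction.

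Of the 286 genes on the array, 155 were not tested. For 125 of these no probe was detected on any array, and 30 had a probe detected on at least 1 array without reaching all 3 of a group. Untested genes were most numerous among the lysosomal and small molecule carriers (32 of 43) and ion exchangers (25 of 37). More than 1 probe was tested for 32 members, and the 24 h call was not the same by each probe for 9 of them, with opposite calls in 0.

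The promoter windows of RefSeq (GRCm38.p6) were found for 107 of the 131 members, as 141 windows. Of 24 windows of genes higher at 24 h, 4 held the antioxidant response element motif, 2 the sterol regulatory element motif, 10 the metal response element motif (TGCGCNC or TGCACNC), 4 the E-box and 0 the amino acid response element motif (TGATGNAA), on either strand. Of 15 windows of genes lower at 24 h, the counts were 4, 0, 6, 1 and 0. These are counts of windows and not of genes. A gene can have several windows with a match, as Slc29a1 has, and its windows can overlap, as those of Slc44a1 do. The metal motif was present in 39.0% of all member windows and 29.3% of all promoter windows, and the amino acid motif in 1.42% and 3.60%. The windows searched were those of the called genes and the rest of the members alike, and a match is a description of letters and not a binding site. Among the named genes, the metal motif and the E-box overlapped in Slc41a3.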

How the data were processed

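RNA of SVR cells was read on 9 Illumina mouse bead arrays in 3 groups taken from the sample labels. The authors deposited, for each array and probe, an unnormalized intensity averaged over beads, a detection p-value from the negative controls, and bead numbers and bead errors; a second deposited table holds intensities scaled to equal array means. RNA was pooled over biological replicates by the authors before labelling. The scanner software is not given in the sources used here. Array counts and bead numbers (median 36 to 40 per member probe) limit the precision.

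Background was removed with neqc (normexp using detection p-values, offset 16, then quantile normalization; limma 3.58.1, R 4.3.3). Tested probes had a detection p under 0.05 on all 3 arrays of some group. A linear model over the 9 arrays with 3 groups was fitted by limma, with Benjamini-Hochberg adjustment over 11653 probes. The brightest tested probe stood for a gene, and a call needed an adjusted p under 0.05 and at least 1.5-fold. Symbols of 23962 of 25697 probes were updated through gene numbers, and 662 tested probes have no name. Probe and protein sequences were not used here. Where a probe was undetected on every array of a group, its level there is a bound.

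The members and gene lists were chosen with earlier results of these data known. The genes named were the called members with the largest changes in each comparison, up to 4 called members and the uncalled member nearest 0 of each role, members detected on no array of 1 group, and Slc9a3r2. Slc44a2, Slc24a3, Slc25a3, Slc25a5, Slc27a4 and Slc46a1 were named after their values were seen, as were the partner genes and second probes given as examples. Roles were assigned by gene family.

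On data simulated for 24 h against sham over 11653 probes, 77 of 100 probes changed 1.5-fold and 95 of 100 changed 2-fold were found. Found here means an adjusted p under 0.05 in the right direction, without the fold threshold of a call. Among the unchanged probes, 1 passed both the adjusted p and 1.5-fold. Median differences between arrays of 1 group were 0.826 to 1.05 of the combined bead error, so no array was taken for a copy of another. Alternatives covered the background step, the normalization, the authors' normalized table, the filter on detection, how a gene's probes were combined, the test, the samples fitted, the fold threshold, a replicate block and the omission of single arrays. Scaling each uncorrected array by its 75th percentile was added after the data were seen. Promoter windows reach from 250 bases before to 50 after each RefSeq start. Figures were drawn with matplotlib 3.10.9.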

Additional observations from a re-analysis of the deposited data

Results flagged for a closer look

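Each result here was picked out because limma's test of the difference between 24 h and 4 h of propranolol passed an adjusted p under 0.05 and 1.5-fold, so the change over sham differed between the times. Members higher at 24 h than at 4 h were Slc9a3r2 (log2 difference 2.29), Slc12a8 (2.16), Slc46a3 (1.47), Slc39a4 (1.07), Slc25a45 (1.04), Slc25a1 (1.02), Slc52a3 (0.99), Slc2a6 (0.96), Slc44a1 (0.96), Slc22a4 (0.80), Slc24a3 (0.70), Slc44a2 (0.70) and Slc8b1 (0.63). Slc12a8, Slc2a6 and Slc22a4 were detected on no 4 h array, and their bounds are at least 3.60-fold, 1.71-fold and 1.31-fold. Their fitted differences and these bounds both depend on the background step and its offset. In the alternative runs their log2 differences were as small as 0.76, 0.25 and 0.24. Members lower at 24 h than at 4 h were Slc19a1 (-1.30), Slc16a6 (-1.22), Slc29a1 (-1.13), Slc35g1 (-0.65) and Slc5a6 (-0.62). The Slc8b1 difference was 0.56, under 1.5-fold, without the third 4 h array, and the other 17 kept their call when any 1 array was left out. Slc9a3r2 was below sham at 4 h and above it at 24 h, with 3 of 3 arrays on each side.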

How the results depend on the processing

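No called gene among those named changed sign under any alternative run, but the carriers' medians changed sign under 75th percentile scaling for 24 h against sham and against 4 h, and for 24 h against 4 h also on probes detected on all 9 arrays. Without background correction, 9 members were higher and 2 lower at 24 h against sham, 0 and 0 at 4 h, and 7 and 2 for 24 h against 4 h, with median log2 fold changes of 0.041, 0.011 and 0.024. Over all genes, 576 were then higher and 415 lower at 24 h against sham, and 1085 and 882 in the main fit. At 4 h these counts were 49 and 56 (main fit 163 and 160). For 24 h against 4 h they were 438 and 245 (main fit 842 and 590). In the authors' normalized table the member counts were 10 and 4, 0 and 0, and 8 and 2. Their medians were 0.124 and 0.089 for 24 h against sham and against 4 h. The all-gene counts there were 681 and 366, 50 and 67, and 524 and 184. Scaling by the 75th percentile gave 9 members higher at 24 h against sham, 0 and 0 at 4 h and 6 higher for 24 h against 4 h. The members' medians were -0.022, 0.011 and -0.038. The matching all-gene counts were 509 higher, 53 and 81, and 384 higher. At 2-fold the member counts were 9 and 4, 0 lower at 4 h, and 6 and 3 for 24 h against 4 h. Over all genes they were 439 and 206, 29 lower at 4 h, and 350 and 93. Median centring gave 20 members higher for 24 h against 4 h (936 over all genes) and member medians of 0.102, 0.016 and 0.095. Restricting to probes detected on all 9 arrays gave 1 member lower at 4 h (148 over all genes) and medians of 0.027, 0.014 and -0.011. No detection filter gave medians of 0.010, 0.009 and 0.003. By the ordinary linear model 1 member was lower at 4 h (154 over all genes). The mean of a gene's probes gave a median of 0.055 for 24 h against 4 h. The cause of these shifts was not tested.

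Of the calls at 24 h against sham, 76.7% were higher among the carriers and 55.2% among all genes; these shares were 71.4% and 65.0% in the authors' table and 60.0% and 42.1% after 75th percentile scaling.

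The titles number the replicates alike in each group, but same-numbered arrays did not deviate together (correlations of -0.022 to 0.006, 0 of 9 pairs over 0.1). Arrays of 1 group differed by about the bead error, so these correlations cannot decide whether the numbers pair the arrays. With the replicate number as a block, 23 members were higher and 7 lower at 24 h against sham, 1 and 2 at 4 h, and 13 and 5 for 24 h against 4 h; medians were 0.115, 0.024 and 0.062, and all 30, 3 and 18 named calls were kept.

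Leaving out each array in turn gave 23 to 25 higher and 7 to 9 lower members at 24 h against sham, 1 to 3 and 1 to 2 at 4 h, and 12 to 17 and 5 to 6 for 24 h against 4 h. The medians ranged over 0.075 to 0.127, 0.024 to 0.045 and 0.044 to 0.088. Of the named calls, 26 of 30, 2 of 3 and 17 of 18 were kept in every such fit. Without the first sham array or the third 4 h array the number higher at 4 h was 3 or 2, and without the third sham array Slc29a2 was not called at 4 h. Signals near background limit the dim genes: their folds shrink when background is left in.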
